A study of Mus musculus with 14 samples.

Results

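The 6 genes described here encode enzymes that remove methyl groups from lysine 4 of histone H3: Kdm5a, Kdm5b, Kdm5c, Kdm1a, Kdm1b and Kdm2b. They were taken by name from the 45217 mouse genes for which a start could be placed, and the H3K4me3 peaks within 1 kb of each gene start were read in 7 peak lists. H3K4me3 is trimethylation of that same lysine. The lists came from CUT&Tag, in which an antibody-directed transposase cuts the DNA around a histone mark, on sorted LSK cells (Lin-Sca1+cKit+), the bone marrow fraction that holds hematopoietic stem and multipotent progenitor cells. By the methods of the study, the diet-fed mice were C57BL/6J males bought at 3 to 4 wk of age, with no engineered allele named. Congenic and EGFP mice on the diets were donors for transplantation or transfer. The methods do not state separately which mice gave these libraries. The HFD-LSK group (3 lists) was from mice fed a high-fat diet with 60% of calories from fat for 16 to 20 wk, and the LFD-LSK group (4 lists) was from mice fed a control diet with 10% of calories from fat for the same time. The labels do not state whether the replicates of a group were separate mice, so the p-values below measure the spread between libraries, which may be partly technical. In a bulk preparation of this kind, fewer marked cells and less mark per cell cannot be told apart.

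H3K4me3 sits on the nucleosomes around the starts of active or poised genes, where it is written by the SET1 and MLL complexes. Methyl groups on lysine 4, in any of its methylated states, are erased by 2 kinds of enzyme. The KDM5 proteins (also named JARID1) carry a JmjC domain, need iron, oxygen and 2-oxoglutarate, and take lysine 4 from the trimethyl and dimethyl state downward. KDM1A (LSD1) and KDM1B (LSD2) are flavin-dependent amine oxidases, which act on monomethyl and dimethyl lysine 4 and cannot remove the trimethyl form. KDM2B is a JmjC protein whose CXXC zinc finger binds unmethylated CpG islands and brings a variant Polycomb complex to them, and it acts on methylated lysine 36 and, by some accounts, lysine 4. In blood formation KDM1A is best known as the partner of the repressors GFI1 and GFI1B, and KDM2B as a factor that sustains stem and progenitor cells. The peaks below show the mark at the starts of the genes for these enzymes and do not measure the enzymes or their activity.

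Each list held between 6921 and 13094 peaks, and together they merged into 14659 consensus peaks, of which 10665 lay within 1 kb of a gene start. The lists differed in reach: of those start peaks, the HFD-LSK lists called 72.8%, 94.3% and 82.4%, and the LFD-LSK lists 60.6%, 80.3%, 77.0% and 53.5%. LFD-LSK replicate 4 was the shortest list, with the narrowest peaks (median 525 bp, against 741 to 1198 bp in the other lists). The labelled cell type was checked against 9 genes of LSK cells, of which 7 had a start peak in at least 1 list. Kit, Cd34, Mecom and Meis1 were called in all 7 lists, and Mecom was the nearest to the top (mean fold rank 1281). Ly6a, which encodes Sca-1 and so defines the sort, and Slamf1 had no peak within 1 kb of the start in any list. Whether the lists used here were complete at each gene is not known, so an absent peak, here and below, is not read as an absent mark. Cd3e and Itgam, which mark T and myeloid cells, had no peak within 1 kb of the start in any list.

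Every gene of the set had a peak at its start. The share of all 45217 genes with such a peak was not counted, here or for the further gene lists. In GRCm38 coordinates the consensus peak at Kdm5a was chr6:120363303-120365476, at Kdm5b chr1:134559546-134562148, and at Kdm5c chrX:152232661-152234402. That at Kdm1a was chr4:136601555-136602843, at Kdm1b chr13:47042762-47044650, and at Kdm2b chr5:122987041-122990205. Each overlapped the 5′ end of its gene. Kdm5c and Kdm1a had their peak to themselves, whereas the other 4 shared it with another gene whose start lies within 1 kb: Ccdc77 at Kdm5a, Mgat4e at Kdm5b, Tpmt at Kdm1b and the noncoding A930024E05Rik at Kdm2b. For those 4 genes the mark cannot be assigned to one of the pair.

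The bases just before the starts are shown because CpG dinucleotides, marked in capitals, are the sequence feature that H3K4me3 regions most often share and the one KDM2B itself binds. They were read 5′ to 3′ on the strand of the gene from RefSeq promoter windows (GRCm38.p6), cut off at the outermost start of the gene. RefSeq windows were matched for 5 of the 6 genes, and Kdm5a is named without sequence. Kdm2b appears at its outer start and at an inner start that lies 88903 bp into the gene and carries the stronger peak, as described further on.
Kdm5b, chr1:134559928-134560177, plus strand: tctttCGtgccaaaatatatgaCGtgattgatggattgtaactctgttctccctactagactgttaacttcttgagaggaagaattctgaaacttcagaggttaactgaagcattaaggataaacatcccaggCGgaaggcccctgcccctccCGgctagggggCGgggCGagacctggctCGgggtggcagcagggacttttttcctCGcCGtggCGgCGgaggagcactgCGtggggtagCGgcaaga
Kdm5c, chrX:152232977-152233197, plus strand: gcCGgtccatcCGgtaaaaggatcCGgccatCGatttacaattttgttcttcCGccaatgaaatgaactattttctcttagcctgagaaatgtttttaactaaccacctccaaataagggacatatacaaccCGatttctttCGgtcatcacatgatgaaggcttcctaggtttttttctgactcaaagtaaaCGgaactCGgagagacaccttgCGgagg
Kdm1a, chr4:136602788-136602973, minus strand: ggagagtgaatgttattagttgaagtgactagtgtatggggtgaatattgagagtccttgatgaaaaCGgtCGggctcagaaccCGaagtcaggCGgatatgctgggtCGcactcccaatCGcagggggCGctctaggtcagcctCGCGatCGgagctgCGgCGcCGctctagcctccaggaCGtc
Kdm1b, chr13:47043249-47043372, plus strand: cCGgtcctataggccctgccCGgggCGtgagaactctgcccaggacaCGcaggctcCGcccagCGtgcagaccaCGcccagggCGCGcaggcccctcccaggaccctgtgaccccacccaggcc
Kdm2b outer start, chr5:122989271-122989349, minus strand: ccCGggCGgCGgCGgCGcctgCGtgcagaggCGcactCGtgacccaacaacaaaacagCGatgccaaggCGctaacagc
Kdm2b inner start, chr5:122900368-122900617, minus strand: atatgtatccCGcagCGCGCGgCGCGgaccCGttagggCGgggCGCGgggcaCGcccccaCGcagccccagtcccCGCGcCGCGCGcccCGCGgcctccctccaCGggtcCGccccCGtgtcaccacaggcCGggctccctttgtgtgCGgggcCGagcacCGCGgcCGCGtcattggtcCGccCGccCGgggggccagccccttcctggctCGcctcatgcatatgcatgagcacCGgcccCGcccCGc

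All of these windows held more CpG than the typical promoter. A window of 300 bases, from 250 before to 50 after a start, held a median of 7 CpG over 32851 mouse promoters. Kdm5c held 13, Kdm5b 17, Kdm1b 26 and Kdm1a 29. In the outer Kdm2b peak, the start at 122989099, 171 bp inside the gene start, held 28, and that at 122988507 held 18. The inner Kdm2b start held 47 at 122900367, more than 98.6% of all promoters, and 49 at 122900350. It was the richest of the set, whereas Kdm5c exceeded 62.1% of all promoters.

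Calls at the 6 genes were nearly complete. All 3 HFD-LSK lists called all 6 genes, while the LFD-LSK lists called 5, 6, 6 and 3 of them. Kdm5b, Kdm1a and Kdm1b were called in all 7 lists, 3 of 6 genes, where 37.3% of the start peaks were. Being called in all 3 HFD-LSK lists, as all 6 were, held for 66.5% of start peaks. Kdm5a and Kdm5c were missing from LFD-LSK replicate 4 alone, and Kdm2b from LFD-LSK replicates 1 and 4. Fisher's exact test gave p = 0.429 for Kdm2b (3 of 3 against 2 of 4 lists) and p = 1 for each of the others, and no consensus peak passed after Benjamini-Hochberg adjustment over all 14659 (lowest adjusted p = 1). Without LFD-LSK replicate 4, 5 of the 6 genes were called in every remaining list, as were 5351 of all 10665 start peaks.

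**Figure D1:**
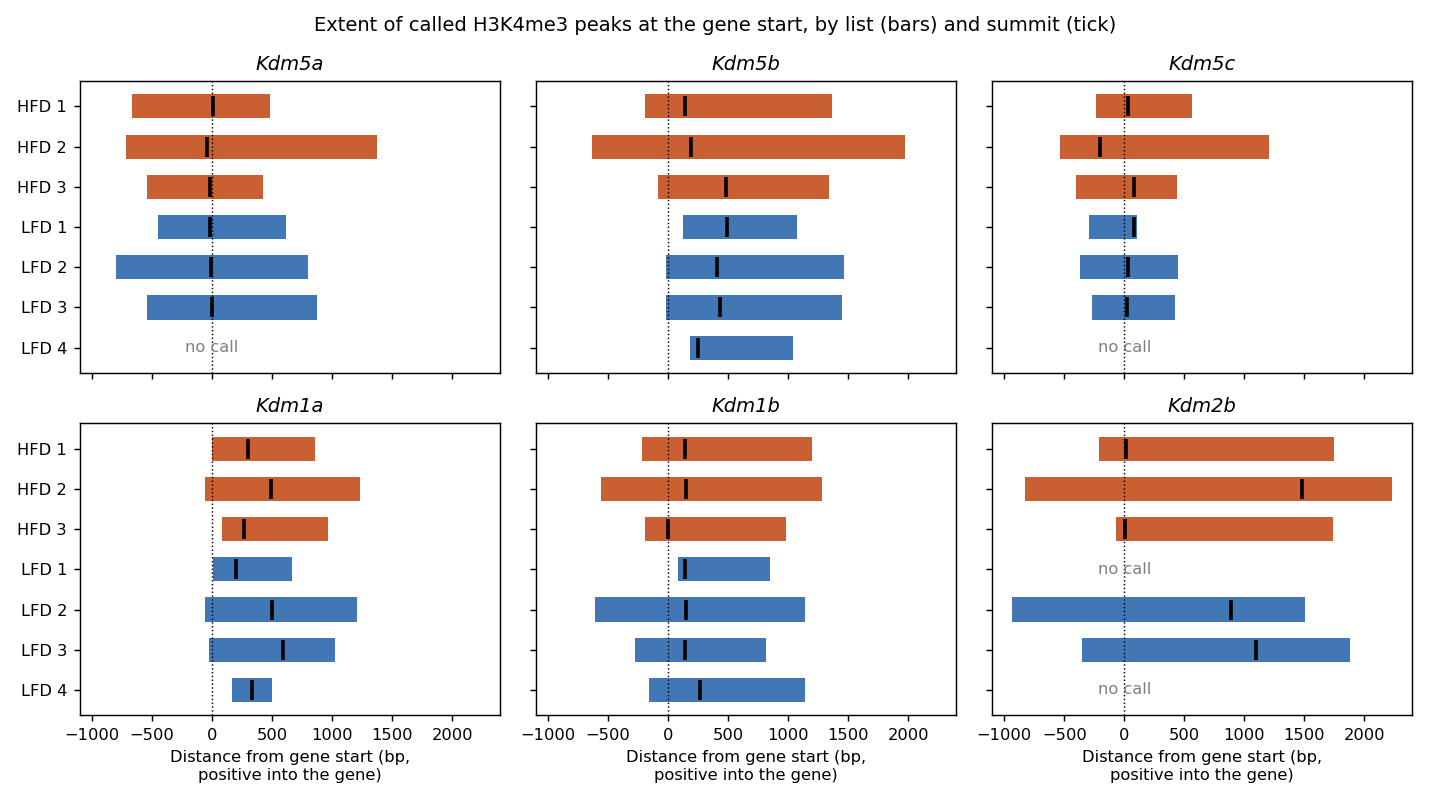
Extent of the called peaks at the 6 gene starts in each list (HFD-LSK red, LFD-LSK blue), with distance from the gene start in bp on the x axis and a black tick at the summit; a bar runs from the first to the last called base, and at Kdm2b in HFD-LSK replicates 1 and 3 and LFD-LSK replicate 3 it spans the gap between 2 called peaks. Summits of Kdm5a lay within 43 bp of the start in all 6 lists that called it, whereas those of Kdm1a lay 204 to 595 bp inside the gene.

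The strength of each peak was taken as its rank by fold enrichment within its own list, where rank 1 is the strongest and fold is the summit over its local background. A list without a call was given the mean of the ranks left for uncalled peaks. The height of the summit was also recovered as a number of fragments, from the fold and p-value of each peak, and divided by the median summit of the same list over the 4395 consensus peaks called everywhere. This relative height is 1 for a typical common peak and does not use the background.

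Kdm5a encodes the KDM5 enzyme that was first found through its binding to the retinoblastoma protein. Its fold ranks were 3262, 1791 and 1310.5 in the HFD-LSK lists and 5242, 3411.5 and 2608 in LFD-LSK replicates 1 to 3, with no call in replicate 4. The relative heights were 0.902, 1 and 0.714 in HFD-LSK (46, 64 and 15 fragments at the summit) and 0.722, 0.791 and 1 in LFD-LSK (39, 34 and 24 fragments). Ranks of the diets overlapped, since LFD-LSK replicate 3 stood nearer the top than HFD-LSK replicate 1, and the heights covered the same range. The mean rank was 2121 ± 1017 (SD, n = 3) in HFD-LSK and 5564 ± 3785 (n = 4) in LFD-LSK, a difference of -3443 (exact permutation p = 0.143, two-sided). This was the largest rank difference among the 6 genes, and it was -1633 without LFD-LSK replicate 4, where Kdm5a carried the rank of an uncalled peak. Of 3333 start peaks that were called at a relative height of at least 0.7 in the other 6 lists, LFD-LSK replicate 4 lacked 655, or 19.7%, while the other lists lacked 0% to 5.75% of the corresponding peaks. The weakest summit it called was at 0.391, and whether its reach had a part in the missing Kdm5a call was not tested.

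Kdm5a peaks were 1152, 2092 and 966 bp wide in HFD-LSK and 1061, 1599 and 1414 bp in the 3 LFD-LSK lists that called it. They straddled the start almost evenly, with outermost bases at -796 and 1377 bp from the start, counted into the gene. With 0 bp for the uncalled list, the mean width was 1403 ± 604 bp against 1019 ± 715 bp (exact permutation p = 0.514).

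Kdm5b encodes the KDM5 enzyme first described as PLU-1 in breast cancer cells. It ranked 4858.5, 3286.5 and 1991 in HFD-LSK and 4717.5, 4741.5, 2128 and 5239.5 in LFD-LSK. Relative heights were 0.745, 0.813 and 1.14 in HFD-LSK and 0.852, 0.674, 1.04 and 0.739 in LFD-LSK, so the third replicate of either diet was the strongest by both measures. The rank difference was -828 (3379 ± 1436, n = 3, against 4207 ± 1406, n = 4, exact permutation p = 0.457), and the height difference was 0.0734 (exact permutation p = 0.571).

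Kdm5b was wide in every list. Its peaks measured 1551, 2603 and 1421 bp in HFD-LSK and 948, 1486, 1469 and 858 bp in LFD-LSK, and each was wider than its list's median peak, by 1.28 to 2.17 times. They ran mostly into the gene, ending 1040 to 1970 bp past the start. HFD-LSK replicates 1 and 2 were wider than every LFD-LSK list, but replicate 3 was not, and the difference of 668 bp had an exact permutation p of 0.143.

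Kdm5b also had a second marked region before its start. It covered chr1:134556124-134557397, at -4054 to -2781 bp from the start, inside Mgat4e. No RefSeq promoter start lay within 1 kb of it, but those promoters lack some genes, such as Kdm5a. This region was called in all 3 HFD-LSK lists and in LFD-LSK replicates 2 and 3, with relative heights of 1.20, 1.13, 1.62, 1.14 and 1.33. It was taller than the peak at the start in each of those 5 lists. Its rank difference between diets was -4360 (exact permutation p = 0.4). In the lists that called it the ranks were 1295.5, 1074.5 and 2450.5 in HFD-LSK and 1075 and 646 in LFD-LSK, which overlapped, so the difference came from the ranks given to the 2 uncalled lists.

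Kdm5c, the X-linked KDM5 gene, carried a weaker mark. It ranked 8810.5, 8050.5 and 1863 in HFD-LSK and 7249.5, 5402 and 3004.5 in LFD-LSK replicates 1 to 3, and LFD-LSK replicate 4 had no call. Relative heights were 0.392, 0.422 and 0.619 in HFD-LSK and 0.481, 0.628 and 0.958 in LFD-LSK. Both diets thus ran from near the bottom of a list to well inside its upper part. The means were 6241 ± 3811 and 6663 ± 3371 (difference -422, exact permutation p = 0.886), and the sign of this difference turned when HFD-LSK replicate 3 (1901) or LFD-LSK replicate 4 (1023) was left out.

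Kdm5c peaks were 797, 1742 and 835 bp wide in HFD-LSK and 401, 820 and 684 bp in LFD-LSK. The means, with 0 bp for the uncalled list, were 1125 ± 535 bp and 476 ± 362 bp. A difference of 648 bp with exact permutation p = 0.0857 was the smallest width p among the 6 genes, and LFD-LSK replicate 2 was wider than HFD-LSK replicate 1.

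Kdm1a encodes LSD1, the catalytic subunit of CoREST complexes. Its ranks were 3190.5, 4419.5 and 7490 in HFD-LSK and 5242, 1483, 2847 and 2806 in LFD-LSK. Relative heights were 0.922, 0.703 and 0.619 in HFD-LSK and 0.722, 1.12, 0.958 and 0.957 in LFD-LSK. By both measures 3 of 4 LFD-LSK lists were stronger than all HFD-LSK lists, and LFD-LSK replicate 1 was not. The mean rank was 5033 ± 2215 in HFD-LSK and 3095 ± 1566 in LFD-LSK (difference 1939, exact permutation p = 0.229), and the height difference was -0.190 (exact permutation p = 0.143).

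The Kdm1a peak lay almost wholly inside the gene. Its first called base lay between -56 and 171 bp from the start, and it ended 498 to 1232 bp into the gene. Its widths were 860, 1289 and 880 bp in HFD-LSK and 656, 1260, 1046 and 328 bp in LFD-LSK (1010 ± 242 against 823 ± 414 bp, exact permutation p = 0.486). A further peak of 306 bp, 1664 to 1969 bp inside the gene, was called only in HFD-LSK replicate 3, on 4 fragments at its summit, the fewest that list could call.

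Kdm1b encodes LSD2, known for demethylating lysine 4 in growing oocytes, where it is needed for maternal imprints. Its summit was the tallest of the 6 start peaks in every list. Relative heights were 1.59, 1.36 and 1.43 in HFD-LSK and 1.56, 1.47, 1.75 and 1.52 in LFD-LSK, a mean of 1.52 ± 0.126 (n = 7). The same peak ranged over nearly the whole of the lists by fold. It ranked 293.5, 4039.5 and 9675 in HFD-LSK and 2764.5, 4101.5, 100 and 294.5 in LFD-LSK. The 3 lists that put it near the top, HFD-LSK replicate 1 and LFD-LSK replicates 3 and 4, were those with the lowest local background at its summit, 0.201, 0.142 and 0.0891 fragments, while in the other 4 lists the background was 2.38 to 5.67 fragments. Among those 4, LFD-LSK replicate 1 had the highest background (5.67) and yet the rank nearest the top (2764.5). In none of the 7 lists did more than 24.8% of peaks have a background above 2 fragments. Whether the background had a part in the spread of the Kdm1b ranks was not tested.

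Between diets, Kdm1b differed by 2854 in rank (4669 ± 4722 against 1815 ± 1948, exact permutation p = 0.314) and by -0.114 in relative height (1.46 ± 0.117 against 1.57 ± 0.124, exact permutation p = 0.286). The rank difference was 351 without HFD-LSK replicate 3. Kdm1b widths were 1414, 1834 and 1178 bp in HFD-LSK and 766, 1750, 1095 and 1298 bp in LFD-LSK, which overlapped (exact permutation p = 0.4).

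Kdm2b had a low summit at its start and some of the longest footprints. The ranks were 7218, 7752.5 and 6300.5 in HFD-LSK and 5013 and 6868.5 in LFD-LSK replicates 2 and 3, with no call in replicates 1 and 4. Relative heights were 0.529, 0.469 and 0.476 in HFD-LSK and 0.651 and 0.625 in LFD-LSK. The 3 HFD-LSK values were below both LFD-LSK values, a comparison that was not tested because 2 LFD-LSK lists gave none. The rank difference was -1417 (7090 ± 734 against 8507 ± 3059, exact permutation p = 0.4). Calling in LFD-LSK replicates 1 and 4 reached down only to relative heights of 0.389 and 0.391, compared with 0.125 in HFD-LSK replicate 2.

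The Kdm2b start peak had outermost bases at -935 and 2229 bp from the start and covered 2 further annotated Kdm2b starts, at 122989099 and 122988507. Its widths were 1536, 3055 and 1278 bp in HFD-LSK and 2444 and 1620 bp in LFD-LSK. In HFD-LSK replicates 1 and 3 and LFD-LSK replicate 3 it was made of 2 called peaks. The mean width, with 0 bp for the uncalled lists, was 1956 ± 960 bp in HFD-LSK and 1016 ± 1220 bp in LFD-LSK (exact permutation p = 0.286).

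Deeper in Kdm2b, an inner start carried a taller peak. This region, chr5:122899197-122901129, lay 88141 to 90073 bp into the gene, overlapped annotated Kdm2b starts at 122900367 and 122900350, and was called in all 7 lists. A shorter KDM2B protein that lacks the JmjC domain but keeps the CXXC finger is known to be made from an internal start. Relative heights at the inner start were 1.08, 0.891 and 0.952 in HFD-LSK and 1.26, 1.12, 1.29 and 1.13 in LFD-LSK. In the 5 lists that called both, the inner summit exceeded the outer one each time, by 0.516 ± 0.0959 (SD, exact sign-flip permutation p = 0.0625, the lowest that 5 lists allow). By rank the inner start was nearer the top in 5 of 7 lists (3162 ± 2711 against 7900 ± 2331, exact sign-flip permutation p = 0.0625). Widths of the inner peak ran from 707 to 1933 bp.

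The inner Kdm2b start did not separate the diets by rank (4170 in HFD-LSK and 2407 in LFD-LSK, exact permutation p = 0.457). By height, all 3 HFD-LSK values were below the 4 LFD-LSK values, a difference of -0.226 (exact permutation p = 0.0286, Benjamini-Hochberg adjusted p = 0.998). This height comparison was singled out after the values had been seen, and 5.51% of start peaks called in all lists separated by height in one direction or the other. Another region within the gene, chr5:122950707-122952755, also lies in Gm33118. It had no RefSeq promoter start within 1 kb, although those promoters lack some genes, and was called in 6 of 7 lists. It was missing from HFD-LSK replicate 1, and its relative heights of 0.349 to 0.714 were those of a weak peak. This region's rank difference of 1982 had an exact permutation p of 0.343.

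**Figure D2:**
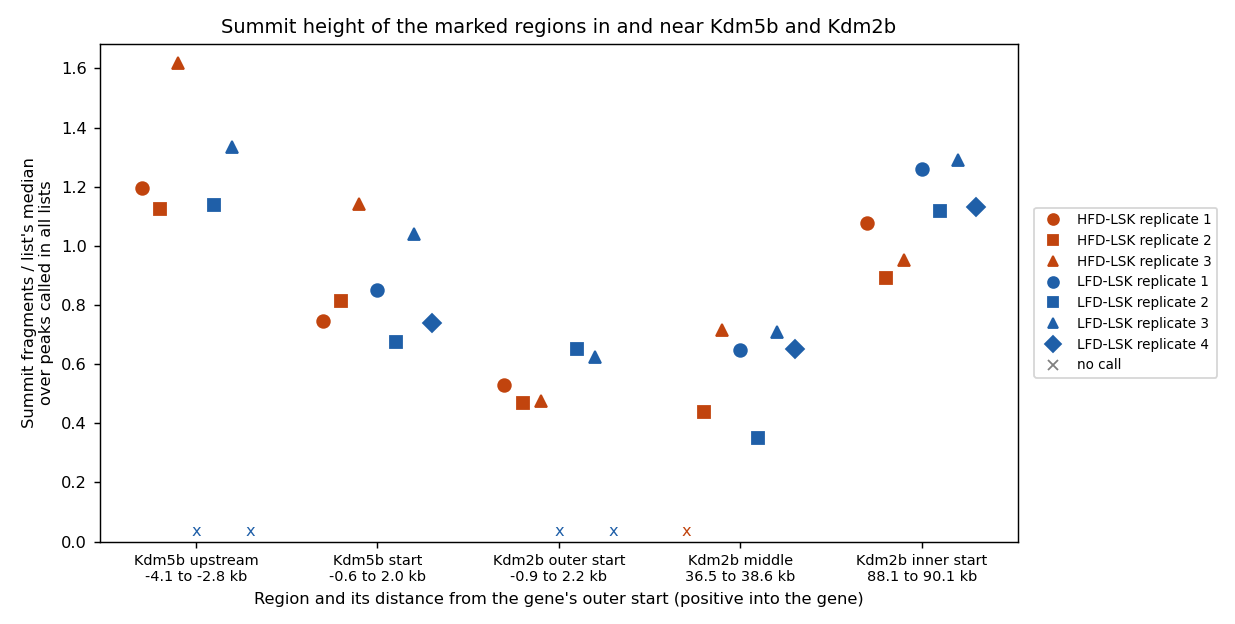
Relative summit height (summit fragments over the list's median across peaks called in all lists) of 5 marked regions in and near Kdm5b and Kdm2b, 1 point per list (HFD-LSK red, LFD-LSK blue), with a cross at the bottom for a list without a call; x labels give the distance from the outer gene start in kb. The inner Kdm2b start lies between 0.891 and 1.29 and the outer start between 0.469 and 0.651, and the upstream Kdm5b region is taller than the start in each of the 5 lists that called both.

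**Figure D3:**
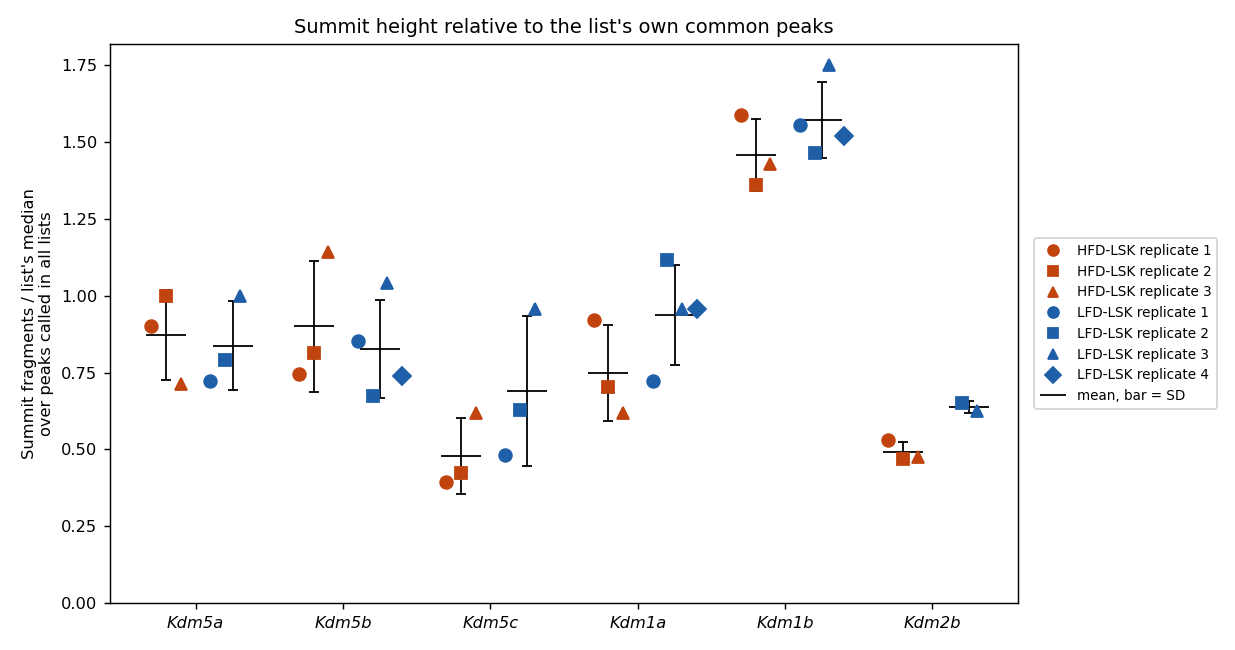
Relative summit height at each gene start, 1 point per list that called it (HFD-LSK red, LFD-LSK blue, replicate number by symbol), with the group mean and SD in black. Kdm1b stands above the other 5 genes at 1.36 to 1.75, and Kdm2b below 0.7 throughout.

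Set side by side, the mean heights of the 6 genes, over the lists that called them, fell into 3 steps. Kdm1b (1.52) stood first, then Kdm5b (0.858), Kdm1a (0.857) and Kdm5a (0.855), and last Kdm5c (0.583) and Kdm2b (0.550). Kdm1b was taller than Kdm5b in 7 of 7 lists (by 0.666 ± 0.193) and than Kdm1a in 7 of 7 (by 0.667 ± 0.171). Kdm5b, Kdm1a and Kdm5a differed by at most 0.0232 on average, far inside the spread between lists. Kdm5c and Kdm2b differed by 0.0538 ± 0.186. Kdm5b and Kdm5a were taller than Kdm5c in 6 of 6 lists, but Kdm1a only in 4 of 6 (exact sign-flip permutation p = 0.125). Of 15 pairs of genes, 6 had an exact sign-flip permutation p below 0.05 for height, and after Benjamini-Hochberg adjustment over the 15 pairs none did (lowest adjusted p = 0.0781).

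The order by mean fold rank was similar at the weak end. Kdm1b (3038), Kdm5b (3852), Kdm1a (3925) and Kdm5a (4089) did not differ from their neighbors beyond the spread between lists, and Kdm5c (6482) and Kdm2b (7900) followed. Among all start peaks, 15.6% had a mean rank nearer the top than Kdm1b and 64.7% one nearer than Kdm2b. For rank, 6 of 15 pairs had an exact permutation p below 0.05 and none after adjustment (lowest adjusted p = 0.0938). Kdm5b was nearer the top than Kdm2b in all 5 lists that called both.

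By width, Kdm5b (mean 1477 bp), Kdm2b (1419 bp) and Kdm1b (1334 bp) led, followed by Kdm5a (1183 bp), Kdm1a (903 bp) and Kdm5c (754 bp). Kdm5b exceeded Kdm5c in all 6 lists that called both, by 547 to 861 bp. Kdm1b exceeded Kdm5c in the same 6 lists, by 92 to 930 bp, and Kdm1a in 7 of 7 lists, by 49 to 970 bp. The pair tests, as the means above, counted an uncalled list as 0 bp. Here 5 of 15 pairs had an exact permutation p below 0.05 and none after adjustment (lowest adjusted p = 0.0586). Kdm2b was thus among the wider of the set and, with Kdm5c, among the lower, and Kdm5c was the taller of the pair in 2 of the 5 lists that called both (exact sign-flip permutation p = 0.688).

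**Figure D4:**
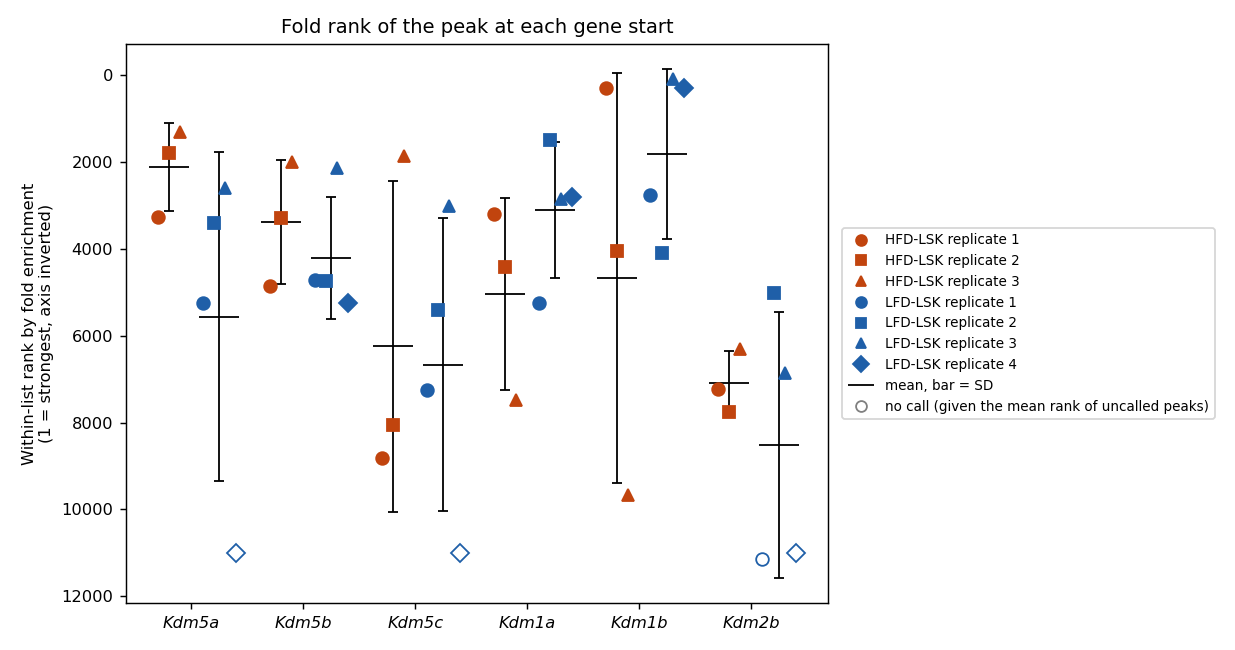
Within-list rank by fold enrichment at each gene start, with the axis inverted so that stronger peaks are higher; points are lists (HFD-LSK red, LFD-LSK blue), open symbols are lists without a call, and black bars are mean and SD. The diets overlap at all 6 genes, and Kdm1b spreads from 100 to 9675.

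**Figure D5:**
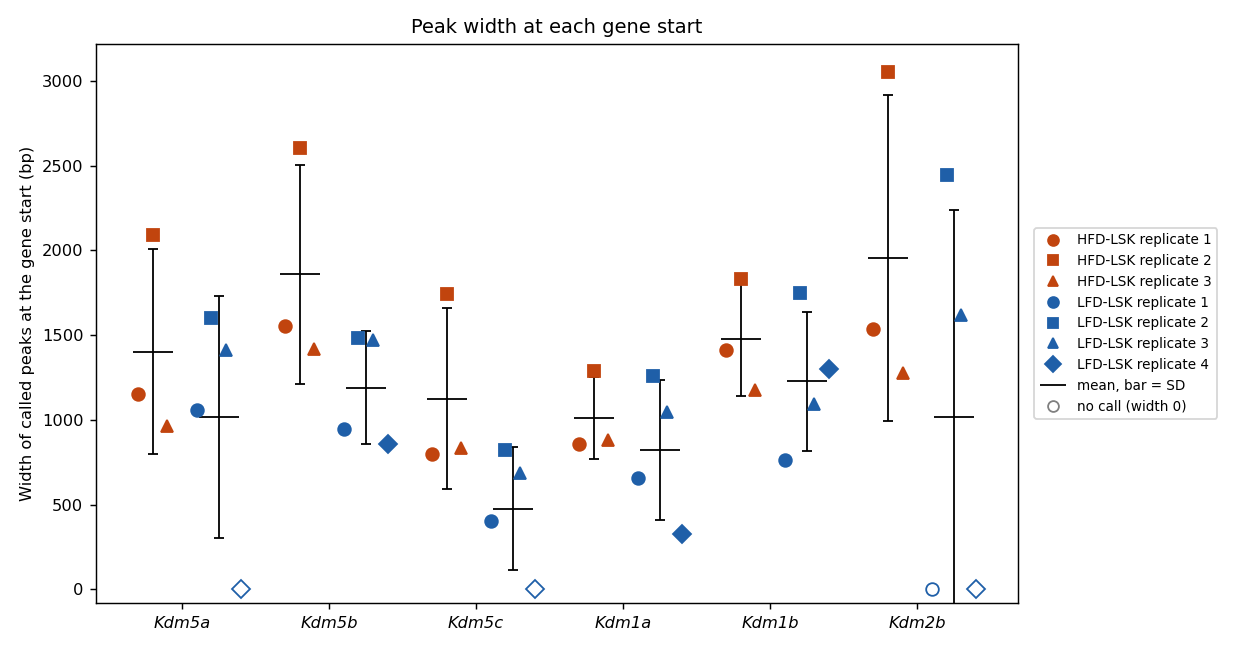
Width in bp of the called peaks at each gene start, 1 point per list (HFD-LSK red, LFD-LSK blue), with 0 bp and an open symbol for a list without a call and mean and SD in black; the lower bar of Kdm2b in LFD-LSK runs below 0 and is cut off. HFD-LSK replicate 2 gave the widest peak at every gene.

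The question of the diet comparison was whether the mark at these genes differed between HFD-LSK and LFD-LSK. No gene of the 6 had ranks or widths that separated the diets. Ranks nearer the top in every HFD-LSK list than in every LFD-LSK list were found at 2.12% of start peaks, and ranks farther from it at 2.3%. Widths larger in every HFD-LSK list were found at 5.76%. The mean rank was nearer the top in HFD-LSK for the 3 KDM5 genes and Kdm2b, 4 of 6, and farther for Kdm1a and Kdm1b, where 50.7% of all start peaks were nearer. At Kdm5c and Kdm2b that direction came with the ranks given to uncalled LFD-LSK lists. Their mean relative heights over the lists that called them were lower in HFD-LSK (0.478 against 0.689 at Kdm5c and 0.491 against 0.638 at Kdm2b). These means leave out LFD-LSK replicate 4 and, for Kdm2b, also replicate 1. Those lists called no summit below relative heights of 0.391 and 0.389, so low LFD-LSK values may be missing. Whether the heights of these 2 genes differed by diet was not tested. The rank difference of Kdm5b was -134 without HFD-LSK replicate 3 and -484 without LFD-LSK replicate 4, and that of Kdm2b was -536 without LFD-LSK replicate 1 and -582 without replicate 4. The median rank difference was -625 over the 6 genes and -38.9 over all start peaks.

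The mean width was larger in HFD-LSK at 6 of 6 genes, by 187 to 940 bp. These differences moved by over 1.5 times with single lists. Without HFD-LSK replicate 2 they were 40.5 bp at Kdm5a, 296 bp at Kdm5b, 340 bp at Kdm5c, 47.5 bp at Kdm1a, 68.8 bp at Kdm1b and 391 bp at Kdm2b. Without LFD-LSK replicate 4 they were 45.3 bp at Kdm5a, 22.3 bp at Kdm1a and 602 bp at Kdm2b, and without LFD-LSK replicate 1 they were 94.3 bp at Kdm1b and 602 bp at Kdm2b. Without LFD-LSK replicate 2 they rose to 578 bp at Kdm5a, 333 bp at Kdm1a, 422 bp at Kdm1b and 1416 bp at Kdm2b, and without HFD-LSK replicate 3 to 604 bp at Kdm5a and 397 bp at Kdm1b. The mean width was also larger in HFD-LSK at 91.6% of all start peaks. The median difference over all start peaks was 284 bp. Kdm5a (385 bp), Kdm5b (668 bp), Kdm5c (648 bp) and Kdm2b (940 bp) lay above it, and Kdm1a (187 bp) and Kdm1b (248 bp) below. Whether the members differed from the other start peaks in this was not tested. HFD-LSK replicate 2, the list with the widest median peak, gave the widest peak at each of the 6 genes. With only the 6921 strongest peaks kept in every list, the direction turned for Kdm5c, Kdm1a, Kdm1b and Kdm2b.

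Exact permutation over the 35 splits of 3 and 4 lists allows no p below 0.0286, and no consensus peak of the 14659 had an adjusted p below 0.05 (lowest adjusted p 0.962 for rank and 0.678 for width, with 297 and 323 peaks at an unadjusted p below 0.05). For the 6 genes every adjusted rank p was between 0.962 and 0.974. Among the 3 genes with a start peak height in all lists, none separated by diet, as 5.51% of such start peaks did. With that lowest p, adjustment over 14659 peaks lets no gene pass unless a large share of all peaks sits at it too. The adjusted p-values therefore do not decide whether the mark at these genes differed between the diets. The size of difference that these lists could detect was not worked out.

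Other enzymes and partners were counted from lists of names. Of 19 other JmjC demethylase genes, most of which act on lysines 9, 27 or 36, 16 had a start peak. Of these, 7 were called in all 7 lists, where 37.3% of all start peaks were. Kdm4a, a demethylase of lysine 9 and lysine 36, was nearest the top (mean rank 1760). Kdm4c, Hr and the Y-linked Kdm5d, the remaining KDM5 gene, had no start peak in the lists used here, with the same limit. Uty was called only in LFD-LSK, in 2 lists, at a mean rank of 11500. The share of start peaks called in only 1 diet was not counted. Of the 16, 0 had a rank difference with an exact permutation p below 0.05 (lowest p = 0.114), where 2.39% of start peaks had one. Their median mean rank was 5549, against 4007 for the 6 genes and 6161 for all start peaks.

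Of 25 genes for partner proteins of the 6 enzymes, 23 had a start peak and 14 were called in all lists, where 37.3% of all start peaks were. Hdac2, a deacetylase of the CoREST complex, was nearest the top (mean rank 882), and Gfi1b and Usp7 had no peak within 1 kb of the start in the lists used here, again with that limit. Bcor, a subunit of the KDM2B complex, was called only in HFD-LSK, in 2 lists, at a mean rank of 11417. Over all start peaks, 83.2% of possible calls were made in the HFD-LSK lists and 67.9% in the LFD-LSK lists. Here too the share called in only 1 diet was not counted. The diets did not overlap for Phf21a, which encodes the CoREST subunit that reads unmethylated lysine 4 and was nearer the top in HFD-LSK (1501 against 3449), and for Rcor2, a CoREST scaffold gene that was farther from it (6461 against 4125). Each had an exact permutation p of 0.0286 and a Benjamini-Hochberg adjusted p of 0.962. These 2 of 23 compare with 2.39% of all start peaks. Gfi1, whose product recruits KDM1A, was called in all 7 lists (3754 in HFD-LSK and 3031 in LFD-LSK, exact permutation p = 0.686), and Pcgf1, of the KDM2B complex, as well (3673 against 2372, exact permutation p = 0.8).

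The single-gene starts whose ranks followed those of a member most closely across the 7 lists were sought among 2649 or 2650 peaks called in all lists. For Kdm5b they were Rpl39 and Pptc7, at a mean absolute rank difference of 510 and 597 (median over candidates 2475). For Kdm1a they were Mppe1 (579) and Coro1a (705), and for Kdm1b Mrtfb (706) and Pip5k1c (785), against medians of 2370 and 2912. The ranks within a list depend on its depth and background, which all its peaks share.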

How the data were processed

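H3K4me3 libraries of LSK cells (3 HFD-LSK, 4 LFD-LSK) were grouped by their labels, and the 7 IgG libraries were not analysed here. The labels name the assay CUT&RUN, whereas the study describes CUT&Tag, the name used here. The submitters' processing notes name Trim Galore, Bowtie2, Picard, MACS2, bedtools, HOMER, featureCounts and GRCm38, whereas the methods of the study name GRCm39 and SEACR. The deposited lists are MACS2 narrow peaks, 1 list per library, and match GRCm38 gene starts. For each peak the authors deposited a score, a fold ratio over background, and −log10 p- and q-values. These depend on the depth and background of each library, whose read totals are not in the lists.

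Peaks that overlapped or touched were merged into consensus peaks, and a consensus peak belonged to a gene within 1 kb of its start. Gene starts came from RefSeq (GRCm38.p6), with strand from RefSeq promoters or, for Kdm5a and others, GENCODE by symbol, which gave 45217 of 49997 genes a start. Ranks were by fold within a list. Widths were summed called bases, 0 if uncalled. Summit fragments were solved from fold and p within a tolerance of 5e-05, which fitted 100% of peaks in each list and 0.7% to 14.5% with p shuffled, and the fewest fragments at a called summit were 4 to 21. Those counts carry counting error as well. HFD-LSK and LFD-LSK were compared by exact two-sided permutation over 35 splits, and calls by Fisher's exact test, with Benjamini-Hochberg adjustment over all consensus peaks. Genes were compared within lists by exact sign flips. Named genes were all 6 members and, from each further list, the gene nearest the top, those called in fewest lists, and those with diets that did not overlap or called in 1 diet. For members called in every list, the 2 closest single-gene starts were named. Members, lists and tests were chosen with earlier results of these data known. The scripts (Python 3.11.15, numpy 2.4.6, scipy 1.17.1, pandas 2.3.3) were tested on simulated data. Some marker genes from the lists are not reported here.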

Additional observations from a re-analysis of the deposited data

Results flagged for a closer look

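The rank of Kdm5b in LFD-LSK replicate 3 (2128) stood apart from the other LFD-LSK lists, which ranked it 4717.5, 4741.5 and 5239.5. The gap to the nearest of them was 0.832 of the range of the group, just above Dixon's 95% critical value for 4 samples. It was the 1 group marked of the 9 tested (rank, width and height of Kdm5b, Kdm1a and Kdm1b), and chance marks about 1 group in 20. The relative height of Kdm5b was also highest there within LFD-LSK (1.04, against 0.674 to 0.852).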

How the results depend on the processing

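Over 90 rank and width differences from alternatives with all lists, which allow a p down to 0.0286, the lowest exact permutation p was 0.0857. Leaving out 1 list allows none below 0.0667 (HFD-LSK) or 0.1 (LFD-LSK), so the count of 0 members past the threshold there says nothing of stability. The number of genes called in every list, 3 as reported, was 1 with equal numbers of peaks per list. It was 0 when a call had to cover at least 50% of the consensus peak, and 3 to 5 when leaving out 1 list. The 5 came without LFD-LSK replicate 4, where 5351 of all 10665 start peaks were also called in every remaining list. With equal numbers of peaks the direction turned for the width of Kdm5c (-97.7 bp), Kdm1a (-106 bp), Kdm1b (-145 bp) and Kdm2b (-452 bp), the rank of Kdm2b (41.8) and the calls of Kdm5c (-16.7 percentage points). With the 50% cover it turned for the rank of Kdm1a (-693) and Kdm2b (2552) and the calls of Kdm2b (-16.7 percentage points). The rank difference of Kdm5c was 241 with −log10 q of at least 5, 1402 when ranked by summit fragments and 1023 with the replicate block, and -1706 to 1901 leaving out 1 list. Kdm1b width over the list median gave -0.0998. The causes were not tested. The height difference of Kdm5b, a measure chosen after seeing the data, ran from -0.0480 to 0.151 when leaving out 1 list and was below 0 without HFD-LSK replicate 3. That of the inner Kdm2b start, chosen likewise, ran from -0.278 to -0.184 when leaving out 1 list and lost its unadjusted exact permutation p of 0.0286 each time, since fewer lists allow fewer splits. Lists with the same number showed little shared deviation (correlations 0.0811, 0.0169 and 0.00273 over 4395 peaks). The highest correlation between diets, 0.0888, was that of HFD-LSK replicate 3 and LFD-LSK replicate 4. These values do not show that the numbers mark pairs, and cannot exclude pairs or batches. The study reports diet comparisons within cohorts and a peak analysis that accounted for batch and paired samples. The labels name no cohort, batch or pair, and the exact permutations over 35 splits treated all lists as exchangeable. The replicate block, on numbers 1 to 3, gave 0 members past the threshold for rank and for width, where 3 pairs allow no p below 0.25. LFD-LSK replicates 1 and 4 called the fewest start peaks.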
